A study of Mus musculus with 10 samples.

Results

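The 4 Hox clusters were studied as the set of all ChIP-seq peaks that overlapped 4 fixed windows of the mouse genome, build mm9. The windows were chr6:52080000-52260000 for HoxA, chr11:96080000-96280000 for HoxB, chr15:102700000-102900000 for HoxC and chr2:74450000-74650000 for HoxD, 180 kb for HoxA and 200 kb for each of the others. They held 679 of the 543779 peaks in the series, 382 from the Adriamycin lists and 297 from the untreated lists. HoxA held 172 of them, HoxB 167, HoxC 199 and HoxD 141. The positions of the windows, and no measured value, decide which peaks are members. All libraries came from R1E mouse embryonic stem cells of a mixed C57BL/6X129Sv background, kept below 20 passages in serum medium with leukemia inhibitory factor, which maintains the undifferentiated state. The treated cells had received 0.5 uM Adriamycin for 8 h, and the others were untreated. Adriamycin, also called doxorubicin, is a topoisomerase II poison that breaks DNA. Chromatin was precipitated for 5 targets: histone H3 trimethylated at lysine 27 (H3K27me3) or lysine 4 (H3K4me3) or dimethylated at lysine 79 (H3K79me2), RNA polymerase II (Pol II) and the RNA-binding protein hnRNP L. Each target had 1 library per condition, so no difference between the conditions has a replicate check and no test of the treatment was made. Read depth is unknown, and a difference between lists may come from depth, which was not tested. The identity of the cells was not checked against marker genes, because peaks were not assigned to genes here.

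Hox genes encode homeodomain transcription factors that give cells their position along the body axis, and mammals carry them in 4 clusters of neighbouring paralogous genes. In embryonic stem cells the clusters are silent and are known as long stretches of H3K27me3, the mark laid down by Polycomb repressive complex 2. Their promoters also carry H3K4me3, the mark of active and poised promoters, and the combination is called bivalent. H3K79me2 marks transcribed gene bodies, and Pol II marks promoters and genes in use.

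Bivalent marking in these cells is known to sit on CpG-rich promoters, so 1 promoter per cluster is shown for its CG content, with each CG in capitals. The sequences are from RefSeq on build GRCm38.p6, run 5' to 3' from 250 bases before to 50 bases after the gene's start, and were not placed on the mm9 peaks.
Hoxa5 promoter, chr6:52204538-52204837, minus strand: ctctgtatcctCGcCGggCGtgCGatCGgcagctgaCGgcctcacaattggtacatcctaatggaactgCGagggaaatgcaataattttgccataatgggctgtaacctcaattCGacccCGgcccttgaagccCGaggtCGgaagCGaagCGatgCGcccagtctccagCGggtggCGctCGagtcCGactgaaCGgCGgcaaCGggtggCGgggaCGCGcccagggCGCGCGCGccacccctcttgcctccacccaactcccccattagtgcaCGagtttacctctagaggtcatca
Hoxb4 promoter, chr11:96318017-96318316, plus strand: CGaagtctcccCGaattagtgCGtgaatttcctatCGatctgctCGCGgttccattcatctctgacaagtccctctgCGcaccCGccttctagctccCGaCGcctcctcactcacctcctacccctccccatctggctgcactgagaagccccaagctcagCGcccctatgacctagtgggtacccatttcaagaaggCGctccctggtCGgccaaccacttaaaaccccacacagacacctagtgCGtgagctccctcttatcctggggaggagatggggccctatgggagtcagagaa
Hoxc4 promoter, chr15:103034145-103034444, plus strand: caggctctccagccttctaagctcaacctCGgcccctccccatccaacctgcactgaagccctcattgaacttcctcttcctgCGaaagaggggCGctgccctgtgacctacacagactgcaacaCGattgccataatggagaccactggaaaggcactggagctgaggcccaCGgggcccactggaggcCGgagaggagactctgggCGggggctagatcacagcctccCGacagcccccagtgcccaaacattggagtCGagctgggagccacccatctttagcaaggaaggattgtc
Hoxd4 promoter, chr2:74721728-74722027, plus strand: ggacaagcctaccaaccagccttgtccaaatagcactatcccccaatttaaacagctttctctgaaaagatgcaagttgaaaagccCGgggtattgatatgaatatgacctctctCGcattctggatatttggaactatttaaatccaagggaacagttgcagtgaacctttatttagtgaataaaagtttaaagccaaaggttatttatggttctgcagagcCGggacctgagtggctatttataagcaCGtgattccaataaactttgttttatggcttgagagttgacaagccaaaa
The 4 promoters hold 29 CG in Hoxa5, 14 in Hoxb4, 9 in Hoxc4 and 4 in Hoxd4. The RefSeq annotation named 39 of the 39 Hox genes, and the promoter table held 24 promoters of 22 of them, mostly from HoxA (9 genes) and HoxD (9 genes). Their median was 14.5 CG, against 7.0 over all 32851 mouse promoters in the table. The motif searched was CG, which reads the same on both strands. At least 1 CG was present in 24 of the 24 Hox promoters and in 94.6% of all promoters. Of all promoters, 34.6% held at least as many CG as the Hox median.

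H3K27me3 made up most of what the lists held in the windows. It gave 301 peaks in the Adriamycin list and 225 in the untreated list. H3K4me3 gave 68 peaks after Adriamycin and 56 without it, Pol II 7 and 11, and H3K79me2 6 and 5. hnRNP L had no peak in the windows in either list. Per 100 kb, the windows held 38.6 H3K27me3 peaks in the Adriamycin list and 28.8 in the untreated list, against 3.34 and 3.69 on the placed chromosomes outside them. H3K4me3 was also denser in the windows, at 8.72 peaks per 100 kb in the Adriamycin list and 7.18 in the untreated list, against 1.58 and 1.45 outside. Pol II was sparser, at 0.897 per 100 kb after Adriamycin and 1.41 in untreated cells, against 2.25 and 3.07 outside. So was H3K79me2, at 0.769 after Adriamycin and 0.641 in untreated cells, against 2.73 and 2.39 outside. Against the rest of the chromosomes, the Hox windows were thus dense in H3K27me3 and sparse in Pol II and H3K79me2 peaks in both conditions. The other long H3K27me3 domains, compared further on, differed less from them.

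**Figure D1:**
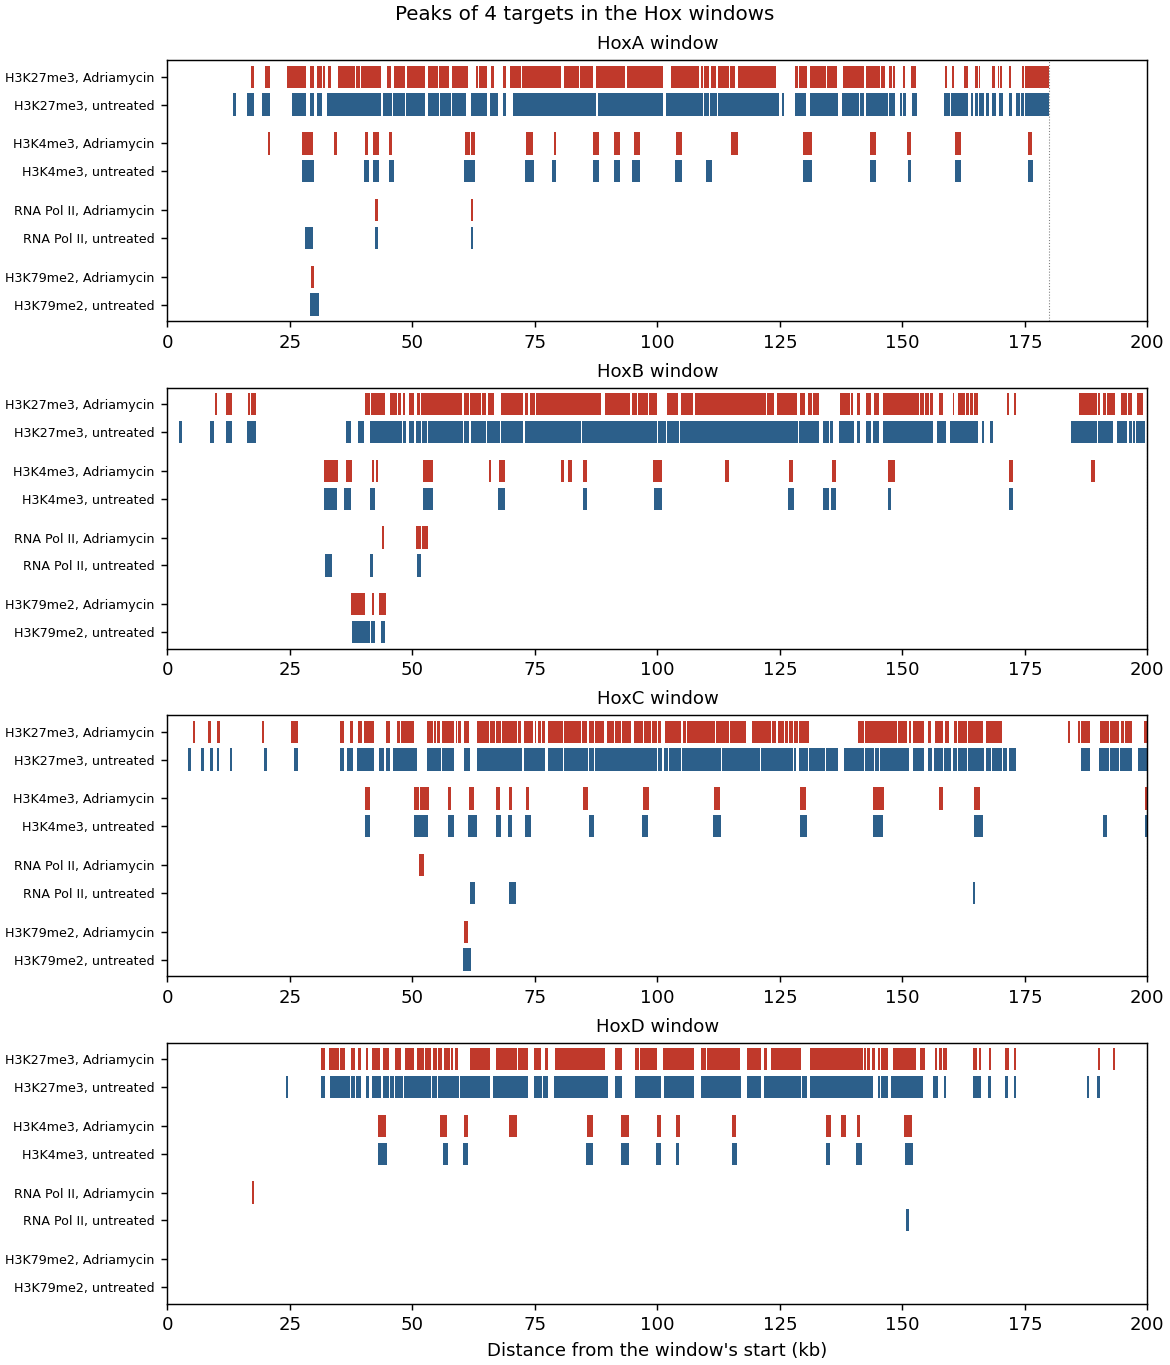
Peaks of 4 targets in the 4 windows, by distance from the window's start in kb, with the Adriamycin list (red) above the untreated list (blue) for each target. H3K27me3 fills the middle of each window, H3K4me3 peaks are spaced along it, and H3K79me2 peaks are most frequent in HoxB (4 after Adriamycin, 3 untreated) and absent from HoxD; the dotted line ends the HoxA window at 180 kb.

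The first question was how much of each cluster H3K27me3 peaks covered after DNA damage. In HoxA they covered 111.1 kb in the Adriamycin list and 129.5 kb in the untreated list. In HoxB they covered 110.9 kb after Adriamycin and 133.9 kb without it. In HoxC the covered lengths were 107.7 kb after Adriamycin and 132.6 kb in untreated cells, and in HoxD 96.9 kb and 110.7 kb. The Adriamycin value was the lower one in 4 of 4 clusters, with ratios of 0.858 in HoxA, 0.828 in HoxB, 0.813 in HoxC and 0.875 in HoxD. Over the 4 windows, 427 kb (54.7%) was covered in the Adriamycin list and 507 kb (65.0%) in the untreated list, a ratio of 0.842. The whole H3K27me3 lists had a lower ratio, 0.746, with 75.3 Mb covered in the Adriamycin list and 101.0 Mb in the untreated list. H3K27me3 in the Hox windows was therefore closer to its untreated extent than the lists as a whole. The HoxA difference of -18.4 kb became -11.7 kb with windows 20 kb shorter at each end, and the HoxD difference of -13.8 kb became -8.09 kb with peaks within 1 kb merged.

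**Figure D2:**
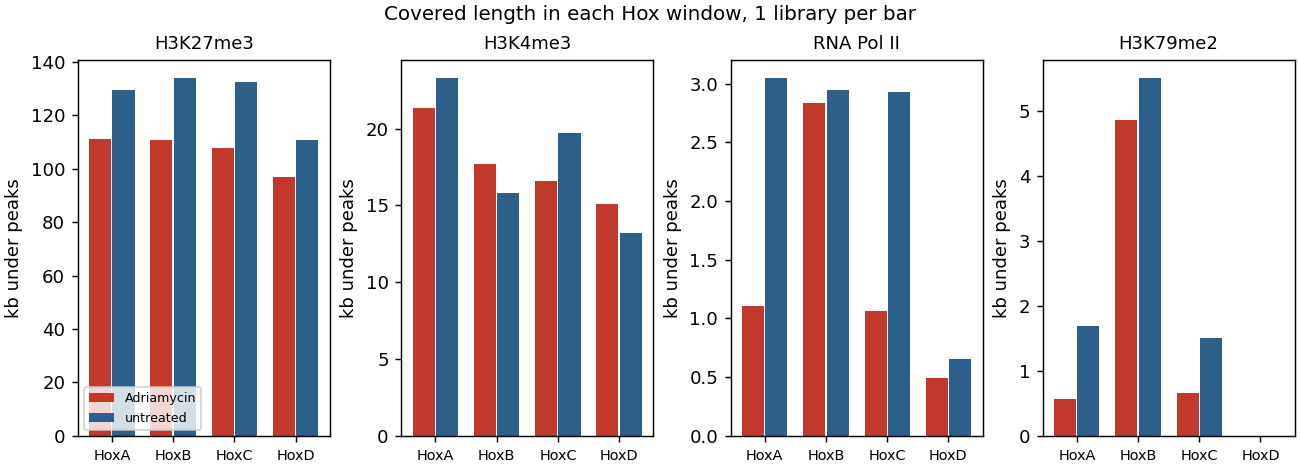
Length under peaks in kb for each window and 4 targets, with Adriamycin (red) left of untreated (blue) and 1 library behind each bar, so no error is shown. The H3K27me3 bar is lower after Adriamycin in 4 of 4 windows, and the H3K4me3 bar is higher in HoxB (17.7 kb, untreated 15.8 kb) and HoxD (15.1 kb, untreated 13.2 kb).

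The order of the clusters by covered share was the same in both conditions. HoxA had the highest share, 61.7% after Adriamycin and 71.9% in untreated cells. HoxB followed with 55.4% and 67.0%, then HoxC with 53.9% and 66.3%, and HoxD had the lowest share, 48.5% and 55.4%. HoxB and HoxC were close in each condition, and with 1 library the order carries no error. These shares depend on where the windows end. Within the longest untreated domain of each window, defined below as joined H3K27me3 peaks, the shares were 77.0% and 86.3% in HoxA, 74.0% and 88.3% in HoxB, 69.4% and 85.8% in HoxC, and 72.8% and 82.9% in HoxD. HoxD therefore had the lowest share of its domain in untreated cells and HoxC after Adriamycin.

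The lower H3K27me3 coverage was spread along each cluster, although HoxC had a large part of it in 1 place. In steps of 10 kb, the covered length was lower in the Adriamycin list in 65 of 78 steps, higher in 8 and equal in 5. By cluster it was lower in 15 of 18 steps in HoxA, 17 of 20 in HoxB, 18 of 20 in HoxC and 15 of 20 in HoxD. No step was higher by more than 0.979 kb. Steps outside the windows were not counted, so these counts have no share elsewhere beside them. The covered ratio was lower over the whole lists (0.746) than in the windows (0.842). The largest difference was in HoxC, in the step from 130 to 140 kb, which held 0.844 kb in the Adriamycin list and 8.22 kb in the untreated list. That step gave -7.37 kb of the HoxC difference of -24.9 kb. The largest differences in the other clusters were smaller, at -3.58 kb in HoxA, -3.28 kb in HoxB and -2.25 kb in HoxD (Adriamycin minus untreated).

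**Figure D3:**
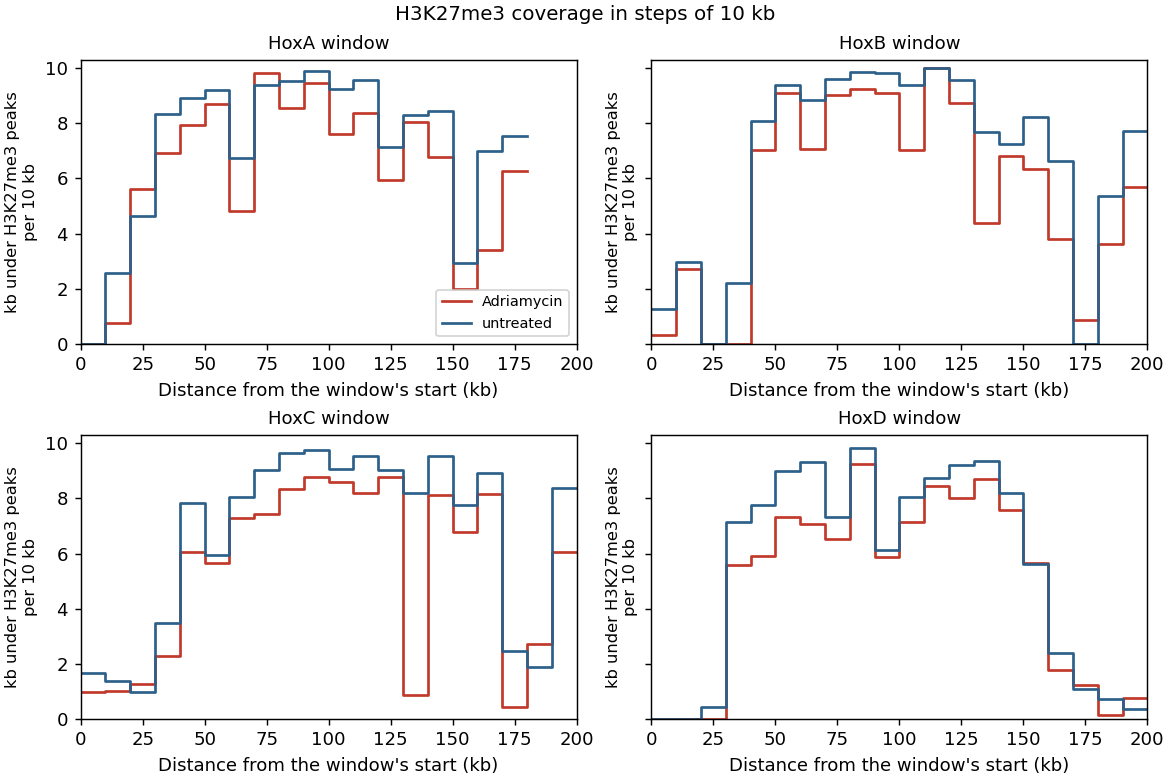
Length under H3K27me3 peaks in kb in each 10 kb step, by distance from the window's start in kb, for Adriamycin (red) and untreated (blue), 1 library each. The Adriamycin line runs below the untreated line over most of each window, and its deepest notch is at 130 to 140 kb of HoxC, with 0.844 kb against 8.22 kb.

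The HoxC notch was a stretch with no H3K27me3 peak in the Adriamycin list, chr15:102830845-102840906, 10.1 kb long. The untreated list had peaks over 8.40 kb of it, and no peak of H3K4me3, Pol II or H3K79me2 lay there in either condition. Of the untreated peaks there, 3 had no Adriamycin partner: chr15:102830868-102834143 with a score of 77.7, chr15:102834452-102836806 with a score of 237.5 and chr15:102838136-102839706 with a score of 170.1. The score is the authors' own value for each peak, 10 times the negative log10 of the p-value that the peak caller gave, and is read here within a list only. In the untreated list these scores were above 37.0%, 80.5% and 72.3% of all H3K27me3 peaks. By rank in their list, 1 of the 3 was thus below the middle and the others well above it. A stretch of the same kind, chr11:96212996-96217254 in HoxB, was 4.26 kb long, held 2.00 kb of untreated coverage and overlapped 1 H3K4me3 peak in the Adriamycin list and 2 in the untreated list. In HoxA, chr6:52204113-52208089 was 3.98 kb long, with 1.15 kb covered in untreated cells and no peak of another target.

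Those stretches divided the long H3K27me3 domains of HoxA, HoxB and HoxC in the Adriamycin list. A domain was a run of H3K27me3 peaks joined over gaps of up to 3 kb. In HoxA the longest domain was 99.65 kb after Adriamycin (chr6:52104463-52204112) and 127.55 kb in untreated cells (chr6:52105391-52232940). In HoxB it was 92.8 kb after Adriamycin (chr11:96120238-96212995) and 132.1 kb in untreated cells (chr11:96116400-96248468). In HoxC the lengths were 95.6 kb after Adriamycin (chr15:102735218-102830844) and 138.0 kb in untreated cells (chr15:102735147-102873099). HoxD measured 127.8 kb after Adriamycin (chr2:74481408-74609174) and 127.6 kb in untreated cells (chr2:74481418-74609008), so its ends hardly differed. The remaining pieces in the Adriamycin list were 24.7 kb long in HoxA, 28.2 kb in HoxB and 29.5 kb in HoxC. Among 39294 Adriamycin domains, HoxD ranked 1, HoxA 3, HoxC 4 and HoxB 5 by length. Among 44593 untreated domains, HoxC ranked 1, HoxB 2, HoxD 4 and HoxA 5. The lengths turned on weak peaks and on the gap allowed: with peaks scoring at least 100 alone, HoxA measured 54.2 kb in both lists and HoxC 95.6 kb in both, while HoxB measured 64.9 kb after Adriamycin and 129.1 kb in untreated cells and HoxD 97.5 kb and 127.6 kb. With gaps of up to 1 kb the Adriamycin domain was the shorter in 4 of 4 clusters, and with gaps of up to 10 kb in 3 of 4, HoxB being the exception.

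Domains of this length also stood outside the clusters, which allows a comparison at like size. The untreated list had 68 domains of at least 50 kb, 4 of them in the windows and 64 outside. The share of covered bases left in each, Adriamycin over untreated, was 0.893 in HoxA, 0.838 in HoxB, 0.809 in HoxC and 0.878 in HoxD. The 64 outside had a median of 0.851, from 0.622 to 1.02, with quartiles at 0.81 and 0.9. Of those 64, 45 were below HoxA, 39 below HoxD, 24 below HoxB and 16 below HoxC. The Hox ratios thus lay among those of other long domains, with HoxC just under the lower quartile. The outside domain nearest in length, chr7:86638786-86766580 (127.8 kb), had a ratio of 0.891. The longest Adriamycin domain was shorter than the untreated one in 3 of the 4 Hox domains, against 89.7% of the 68. It was divided into 2 or more Adriamycin domains in 3 of the 4, against 40 of the 64 outside. Because these domains were taken from the untreated list, shorter Adriamycin lengths are favoured by the choice. Taken from the Adriamycin list, the longest untreated domain was the shorter in 1 of the 4 Hox domains, HoxD (127.8 kb after Adriamycin, 127.6 kb untreated), against 36.7% of 49.

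**Figure D4:**
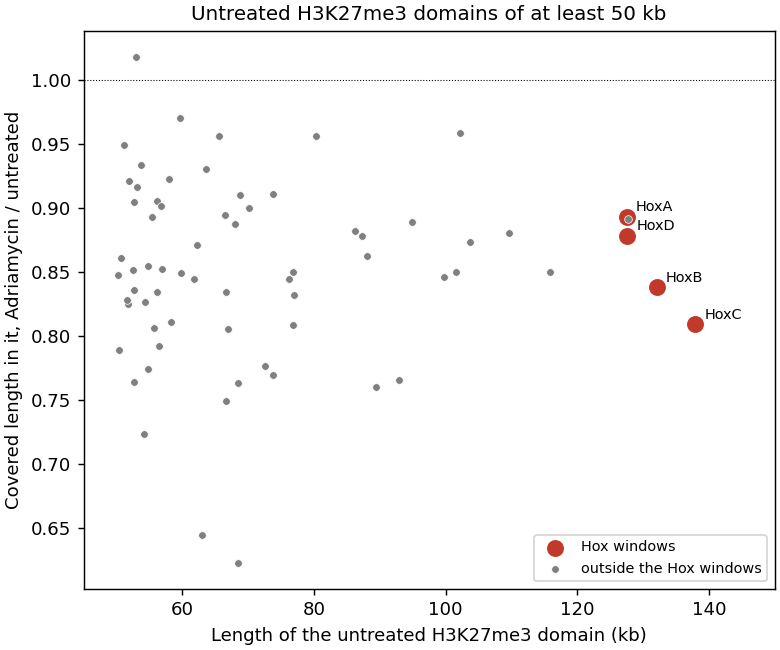
Untreated H3K27me3 domains of at least 50 kb, by length in kb and by the ratio of covered length in them, Adriamycin over untreated, with the 4 Hox domains in red and the 64 others in grey. The Hox domains are 4 of the 5 longest, with a grey point of 127.8 kb over HoxA, and their ratios, 0.809 to 0.893, lie within the range of the others; the dotted line is a ratio of 1.

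H3K27me3 peaks were more numerous and narrower after Adriamycin inside the clusters. The counts were 72 in the Adriamycin list and 54 in the untreated list for HoxA, 70 and 54 for HoxB, 92 and 69 for HoxC, and 67 and 48 for HoxD. The ratio over the windows was 1.34, whereas the whole lists had a ratio of 0.905. The median width was 920 bp after Adriamycin and 1289 bp in untreated cells, and the widest peaks were 12264 bp and 19133 bp, both in HoxB. The widest untreated peak of HoxA, chr6:52152316-52167395, overlapped 5 Adriamycin peaks. The widest of HoxB, chr11:96184622-96203754, overlapped 4, among them the highest-scoring H3K27me3 peak of the Adriamycin windows, chr11:96189972-96202235, with a score of 3206. Untreated peaks that overlapped 2 or more Adriamycin peaks numbered 70 of 225 (31.1%, exact Clopper-Pearson 95% interval 25.1 to 37.6), against 9.02% of the whole list. The reverse, Adriamycin peaks that overlapped 2 or more untreated peaks, numbered 24 of 301 (7.97%, interval 5.18 to 11.6), against 3.98% of the whole list. Wide peaks can overlap more peaks, so the count was repeated for peaks of at least 2 kb. It was then 8 of 63 Adriamycin peaks (12.7%), against 19.3% of the whole list, and 55 of 77 untreated peaks (71.4%), against 52% of the whole list. Where 1 peak matched 1 peak across the conditions, the Adriamycin peak was the narrower in 82 of 101 pairs, with a median difference of -121 bp, against 76.2% of pairs and -123 bp in the whole lists. The intervals cover counting error only, since cultures were not replicated.

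Few H3K27me3 peaks of the clusters lacked a partner in the other condition, meaning an overlap of at least 1 bp. In the Adriamycin list 17 of 301 lacked one (5.65%, interval 3.32 to 8.89), against 27% of the whole list. In the untreated list 35 of 225 lacked one (15.6%, interval 11.1 to 21.0), against 41.2% of the whole list. The untreated peaks without a partner numbered 7 of 54 in HoxA, 11 of 54 in HoxB, 11 of 69 in HoxC and 6 of 48 in HoxD. Most of them scored low, with a median of 67.2 against 97.1 for the whole list. The highest were chr2:74579545-74580596 in HoxD at 240.7, above 80.8% of the list, and chr15:102834452-102836806 in HoxC at 237.5, above 80.5%. Of the 170 untreated peaks scoring at least 100, 7 lacked an Adriamycin partner (4.12%), against 17.4% of such peaks in the whole list. Most Adriamycin peaks without a partner were short and weak, and 1 scored at least 100, chr11:96120238-96121265 in HoxB, with a score of 136.3. Counted in bases, 78% of what either list covered in the windows was covered in both, against 50.5% over the whole lists. By cluster that share was 79.6% in HoxA, 77.5% in HoxB, 73.3% in HoxC and 82.4% in HoxD. The bases found in the untreated list alone summed to 97.7 kb, and those in the Adriamycin list alone to 17.6 kb. A partner is easier to meet where peaks are dense. H3K27me3 peaks covered 54.7% of the windows after Adriamycin and 65.0% in untreated cells, against 2.84% and 3.81% of the placed chromosomes outside. The whole lists are therefore not a comparison at like density, and these shares alone do not show that the clusters kept more H3K27me3.

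The highest-scoring H3K27me3 peaks were compared between the lists in HoxA, HoxC and HoxD. In HoxA they were chr6:52160860-52164052 (score 2317) after Adriamycin and chr6:52119381-52123579 (score 3138) in untreated cells. The untreated peak over the first of these places, chr6:52152316-52167395, scored 3100, a value at which peaks of HoxA are tied. The order of these places in untreated cells is therefore not clear. In HoxB the leading peaks were chr11:96189972-96202235 (score 3206) after Adriamycin and chr11:96133164-96140306 (score 3100) in untreated cells. In HoxC they were chr15:102778243-102780827 (score 1527) after Adriamycin and chr15:102805111-102811722 (score 2594) in untreated cells. In HoxD the same place led both lists, chr2:74581212-74587023 (score 2959) after Adriamycin and chr2:74581224-74587199 (score 3100) in untreated cells. Of the window peaks, 91 of 301 (30.2%) were in the top 10% of the Adriamycin list by score and 85 of 225 (37.8%) in the top 10% of the untreated list. The clusters were thus rich in high-ranking H3K27me3 peaks in each list.

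H3K4me3 differed between the clusters in direction, with small differences. In HoxA its peaks covered 21.4 kb in the Adriamycin list and 23.3 kb in the untreated list, and in HoxC 16.6 kb and 19.7 kb. In HoxB they covered 17.7 kb after Adriamycin and 15.8 kb in untreated cells, and in HoxD 15.1 kb and 13.2 kb. The sum was 70.8 kb after Adriamycin and 72.1 kb in untreated cells, a ratio of 0.982, against 0.916 for the whole lists. The size of that small difference varied with the processing, from -0.97 kb with shorter windows to -7.40 kb with equal numbers of peaks. The directions by cluster were not rerun under other processing. In HoxB, 7 of the 18 Adriamycin peaks had no untreated partner, and their median score was 64.7, with 50 the lowest kept. Peak counts were 21 and 17 in HoxA, 18 and 12 in HoxB, 16 and 16 in HoxC, and 13 and 11 in HoxD; the first count of each pair is from the Adriamycin list. The strongest peaks of HoxA lay at one place, chr6:52107524-52109749 after Adriamycin and chr6:52107502-52109903 in untreated cells, both at a score of 3100, at which many peaks of these lists are tied. HoxD shared its strongest place, chr2:74600376-74602017 (score 3164) after Adriamycin and chr2:74600520-74602072 (score 3100) in untreated cells. So did HoxC, chr15:102751494-102753399 (score 3100) and chr15:102751311-102753099 (score 2161), and HoxB, chr11:96111981-96114727 (score 1017) and chr11:96111941-96114559 (score 1149). The 4 clusters thus had their leading H3K4me3 peak at the same place in both conditions.

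H3K4me3 peaks found in the Adriamycin list alone were about as frequent in the windows as in the whole list, and mostly weak. Over the windows 14 of 68 Adriamycin peaks had no untreated partner (20.6%, interval 11.7 to 32.1), against 15.8% of the whole list. In the other direction 4 of 56 untreated peaks had no Adriamycin partner (7.14%, interval 1.98 to 17.3), against 14.5% of the whole list. The Adriamycin peaks without a partner numbered 3 of 21 in HoxA, 7 of 18 in HoxB (38.9%, interval 17.3 to 64.2), 2 of 16 in HoxC and 2 of 13 in HoxD. Among peaks scoring at least 100 they were 4 of 51 (7.84%), against 6.13% of such peaks in the whole list. The highest-scoring were chr11:96268595-96269384 in HoxB (score 326.6), then chr2:74587448-74588553 (score 235.0) and chr2:74519733-74521252 (score 217.6) in HoxD. These 3 and chr11:96161756-96162491 in HoxB (score 108.8) were the 4 of the 14 that scored at least 100. The 4 untreated peaks without a partner scored between 69.5 and 122.2, the highest being chr6:52190021-52191048 in HoxA. For pairs matched 1 to 1, the Adriamycin H3K4me3 peak was the narrower in 37 of 50, with a median difference of -104 bp, against 68.5% of pairs in the whole lists.

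Most H3K4me3 peaks of the clusters lay on H3K27me3 in both conditions. The count was 56 of 68 in Adriamycin cells (82.4%, interval 71.2 to 90.5) and 53 of 56 in untreated cells (94.6%, interval 85.1 to 98.9). In the whole lists the shares were 23.5% after Adriamycin and 28.1% in untreated cells. The difference in the windows was -12.3 percentage points (Adriamycin minus untreated), and since most of these peaks lie at the same places in both lists, no interval is given for it. It was -2.73 points, 79.4% after Adriamycin and 82.1% in untreated cells, when the overlap had to span 50% or more of the shorter peak. By cluster the counts were 17 of 21 after Adriamycin and 16 of 17 in untreated cells for HoxA, 14 of 18 and 10 of 12 for HoxB, 14 of 16 and 16 of 16 for HoxC, and 11 of 13 and 11 of 11 for HoxD. In bases, H3K27me3 peaks covered 69.4% of the H3K4me3 bases and 53.2% of the other bases of the windows in the Adriamycin lists. In the untreated lists they covered 78.8% of the H3K4me3 bases and 63.6% of the others. H3K4me3 bases were therefore not poorer in H3K27me3 than the other bases of the windows at the resolution of peaks. Those other bases include long stretches without H3K27me3 at the window ends. The lower end of HoxD, for example, had none over 31.4 kb after Adriamycin and 24.2 kb in untreated cells. The comparison therefore cannot show whether H3K27me3 is lower at H3K4me3 peaks than close beside them.

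**Figure D5:**
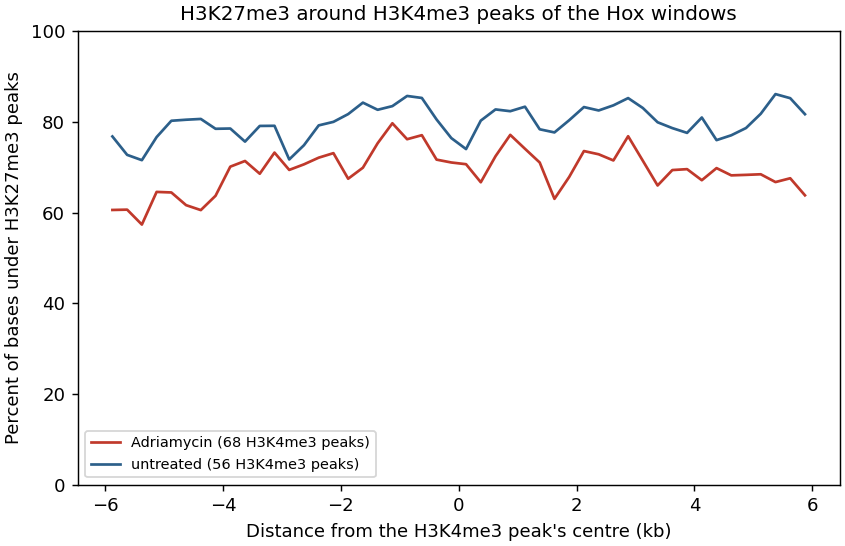
Percent of bases under H3K27me3 peaks by distance in kb from the centre of the H3K4me3 peaks of the windows, for 68 Adriamycin peaks (red) and 56 untreated peaks (blue). The Adriamycin line lies between 57.4% and 79.7% and the untreated line between 71.6% and 86.1%.

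Around the H3K4me3 centres the profile was lower near the centre than 875 bp to either side, but it varied as much farther out. It was 63.0% at +1625 bp after Adriamycin and 71.7% at -2875 bp in untreated cells, both lower than at the centre. No dip at the centre can therefore be read from it. Within 250 bp of the centre, H3K27me3 peaks covered 70.9% of bases after Adriamycin and 75.2% in untreated cells. At 2 to 4 kb they covered 71.2% after Adriamycin and 79.5% in untreated cells. H3K27me3 was thus lower in the Adriamycin lists both at the H3K4me3 peaks and beside them.

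Marks of transcription were rare at these H3K4me3 peaks. A Pol II peak overlapped 4 of 68 in Adriamycin cells (5.88%), against 49.6% of the whole list. In untreated cells it was 9 of 56 (16.1%), against 61.3%. An H3K79me2 peak overlapped 3 of 68 in Adriamycin cells, against 33.9%, and 3 of 56 in untreated cells, against 38.4%. Within the long domains H3K4me3 peaks stood at 14.1 per 100 kb after Adriamycin and 11.8 in untreated cells in HoxA, 11.4 and 7.57 in HoxB, 10.9 and 10.2 in HoxC, and 10.2 and 8.62 in HoxD. The 64 long domains outside had medians of 5.89 after Adriamycin and 5.50 in untreated cells. Of those 64, the number below the Hox domain was 62 after Adriamycin and 60 in untreated cells for HoxA, 57 and 43 for HoxB, 54 and 57 for HoxC, and 54 and 50 for HoxD. HoxB in untreated cells thus lay inside the quartiles of the outside domains, 3.73 and 8.23. Pol II peaks stood at 0 to 2.27 per 100 kb in the Hox domains after Adriamycin and 0.78 to 3.14 in untreated cells, against outside medians of 1.83 and 2.3. H3K79me2 peaks stood at 0 to 3.03 per 100 kb after Adriamycin and 0 to 2.27 in untreated cells, against outside medians of 0 in both. Set against other long domains, the Hox domains were thus not poorer in H3K79me2 peaks. HoxA, HoxB and HoxC lay above the outside upper quartile of 0, and HoxD had none. For Pol II, HoxB (2.27) lay above the median after Adriamycin, and HoxA (1.57), HoxC (0.72) and HoxD (0) below it. In untreated cells HoxA (3.14) lay above the median, and HoxB (1.51), HoxC (2.17) and HoxD (0.78) below it.

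Pol II peaks were few, and most of the peaks called had no partner in the other condition. They covered 5.51 kb in the Adriamycin list and 9.57 kb in the untreated list, a ratio of 0.576, against 0.707 for the whole lists. With windows 50 kb longer at each end they covered 10.7 kb after Adriamycin and 22.0 kb in untreated cells. Of 7 Adriamycin peaks 4 had no untreated partner, against 26.1% of the whole list, and of 11 untreated peaks 8 had no Adriamycin partner, against 48%. With so few peaks, the exact interval for the Adriamycin share ran from 18.4% to 90.1% and that for the untreated share from 39.0% to 94.0%. Both intervals include the shares of the whole lists. Among peaks scoring at least 100, 1 of 4 Adriamycin peaks lacked a partner, against 8.97% of such peaks in the whole list. For untreated peaks it was 6 of 9, against 29.5%. In HoxA, chr6:52122297-52122944 (score 202.1) and chr6:52141873-52142334 (score 144.4) in Adriamycin cells matched chr6:52122314-52122978 (score 351.8) and chr6:52141859-52142425 (score 341.9) in untreated cells. HoxA also had 2 untreated Pol II peaks on its strongest H3K4me3 peak, chr6:52107988-52108673 and chr6:52108675-52109803, with no Adriamycin Pol II peak there.

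In HoxB, Pol II lay at chr11:96130780-96131845 (score 273.0) in Adriamycin cells and at the overlapping chr11:96130982-96131732 (score 126.6) in untreated cells. The next Adriamycin peak, chr11:96131929-96133259 (score 270.1), lay on an H3K4me3 peak and on H3K27me3 and had no untreated partner. HoxB also had an Adriamycin peak at chr11:96123844-96124284 (score 63.2), and untreated peaks without a partner at chr11:96112096-96113675 (score 181.5) and chr11:96121447-96122058 (score 100.6). In HoxC, 1 Adriamycin peak, chr15:102751315-102752380 (score 58.5), lay on the strongest H3K4me3 peak of the cluster. The 3 untreated HoxC peaks lay elsewhere, at chr15:102761700-102762675 (score 236.7), chr15:102769694-102771149 (score 78.1) and chr15:102864353-102864844 (score 102.2). In HoxD, 1 Adriamycin peak stood outside all marks at chr2:74467189-74467684 (score 50.2), near the lowest score kept. The untreated HoxD peak, chr2:74600761-74601419 (score 115.0), lay on the strongest H3K4me3 peak of that cluster. Of these peaks 4 of 7 in the Adriamycin list and 10 of 11 in the untreated list overlapped H3K4me3. As many overlapped H3K27me3, but they were not all the same peaks. H3K27me3 peaks covered 54.7% of the windows after Adriamycin and 65.0% in untreated cells, and H3K4me3 peaks 9.07% and 9.24%. Neither overlap was counted over the whole Pol II lists, so no share elsewhere stands beside these counts.

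H3K79me2 was held mainly by HoxB and lay at the same places in both conditions. It covered 6.08 kb over the windows in the Adriamycin list and 8.70 kb in the untreated list, a ratio of 0.699, against 0.937 for the whole lists. With equal numbers of peaks the covered lengths were 4.30 kb after Adriamycin and 8.70 kb in untreated cells. None of 6 Adriamycin peaks and none of 5 untreated peaks lacked a partner, against 18% and 19% of the whole lists. With so few peaks, the exact intervals reached 45.9% and 52.2%, so they include the shares of the whole lists. In HoxB the Adriamycin list had 4 peaks between chr11:96117560 and chr11:96124653, the highest chr11:96118922-96120319 with a score of 344.1. The untreated list had 3 there, the highest chr11:96117690-96121360 with a score of 150.1. HoxB H3K79me2 covered 4.86 kb after Adriamycin and 5.51 kb in untreated cells. In HoxA 1 peak, chr6:52109397-52109960 (0.564 kb) after Adriamycin and chr6:52109164-52110848 (1.69 kb) in untreated cells, overlapped the end of the strongest H3K4me3 peak. In HoxC the peak was chr15:102760599-102761259 (0.661 kb) after Adriamycin and chr15:102760391-102761894 (1.504 kb) in untreated cells. HoxD had none. The HoxB block overlapped the lower end of the long H3K27me3 domain, which began at 96120238 after Adriamycin and at 96116400 in untreated cells. Over the windows, H3K79me2 peaks overlapped an H3K27me3 peak in 5 of 6 cases after Adriamycin and in 5 of 5 in untreated cells. H3K27me3 peaks covered 54.7% of the windows after Adriamycin and 65.0% in untreated cells. The overlap was not counted over the whole H3K79me2 lists, so these few peaks do not show that the marks occur together.

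hnRNP L gave no peak in any of the 4 windows. Its lists were small, with 1022 peaks after Adriamycin and 1120 in untreated cells. Taking 3 peaks as the limit, a count of 0 allows up to 0.294% of the first list and 0.268% of the second in the windows. Outside the windows hnRNP L had 0.032 peaks per 100 kb after Adriamycin and 0.035 in untreated cells. At such densities a count of 0 over 780 kb does not set the windows apart from the other chromosome parts. The nearest hnRNP L peaks were 34.0 kb from the HoxC window after Adriamycin and 34.1 kb in untreated cells. In HoxA the nearest was 1082 kb away in both lists.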

How the data were processed

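Peaks came from 10 lists, 1 per target and condition. Per the submitters' processing notes the tools were CASAVA 1.8.2 and MACS 1.4.1 and the build was mm9. The authors deposited positions and a score per peak, with a lowest score of 50. In MACS of this generation the score is 10 times the negative log10 of the p-value. Scores describe, rank or filter peaks within a list. The sources used here give neither read depth nor input use. Membership follows from window positions, but the clusters and lists were chosen for study with earlier results of these data known.

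Peaks overlapping a window by at least 1 bp were members, and covered lengths were clipped to the window. Positions are printed 1-based, and the windows as their rule gives them. Partners overlapped by at least 1 bp. Domains joined peaks over gaps of up to 3 kb. The text names, per window, the longest domain, leading peaks and leading peaks without a partner, and prints part of these. The 10 kb steps, gaps, long domains elsewhere, H3K4me3 profiles, peaks of at least 2 kb and printed promoters were chosen after values were seen. Shares have exact Clopper-Pearson 95% intervals. Overlap steps were tested on simulated lists. Python 3.11.15, pandas 2.3.3, SciPy 1.17.1 and matplotlib 3.10.9 were used. Alternatives changed the score minimum, peak numbers, window ends, merging, overlap and domain gap.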

Additional observations from a re-analysis of the deposited data

How the results depend on the processing

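No paired analysis was possible because each target had 1 library per condition. Summed over the 4 windows, the covered lengths of H3K27me3, H3K4me3, Pol II and H3K79me2 were lower after Adriamycin under all alternatives run. So were those of H3K27me3 in each window. The sign was reversed in 0 cases, but the size moved in several (values are Adriamycin minus untreated). No alternative was run for the other targets by cluster, and H3K4me3 was higher after Adriamycin in HoxB and HoxD. For H3K4me3 the difference of -1.29 kb became -4.39 kb with scores of at least 100, -7.40 kb with equal numbers of top-scoring peaks and -6.04 kb with windows extended by 50 kb. For H3K79me2 the difference of -2.62 kb became -4.40 kb with equal numbers, and for Pol II -4.06 kb became -11.33 kb with extended windows. For H3K27me3 in HoxA -18.37 kb became -11.73 kb with windows shortened by 20 kb, and in HoxD -13.80 kb became -8.09 kb with peaks within 1 kb merged. The share of untreated H3K27me3 peaks without an Adriamycin partner, 15.56%, became 22.22% (12 of 54) after that merging. The longest domains after Adriamycin and in untreated cells, with gaps of up to 1 kb, were 32.8 and 55.3 kb in HoxA, 31.7 and 94.6 kb in HoxB, 54.8 and 73.7 kb in HoxC, and 23.4 and 42.2 kb in HoxD. With gaps of up to 10 kb they were 184.6 and 188.1 kb, 132.9 and 132.1 kb, 131.5 and 187.4 kb, and 141.8 and 149.0 kb. Beyond the alternatives' own construction, the cause of these changes was not tested. Depth is unknown, so weak peaks missing from a list cannot be told from peaks that were not detectable.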

Other observations

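H3K27me3 went on past some windows. In the 50 kb above the HoxC window its peaks covered 28.1 kb in the Adriamycin list and 34.3 kb in the untreated list, and in the 50 kb below the HoxB window 30.2 kb and 36.0 kb. Below HoxD the flank held little H3K27me3, 0 kb after Adriamycin and 0.552 kb in untreated cells, and instead 7.21 kb and 6.20 kb of H3K79me2. The 50 kb above HoxD held 9.28 kb of H3K79me2 after Adriamycin and 9.85 kb in untreated cells, so HoxD, which had no H3K79me2 peak of its own, lay between stretches that carried it. Below HoxA the flank held 1.397 kb of Pol II in the Adriamycin list and 7.38 kb in the untreated list, beside 7.13 kb and 8.05 kb of H3K79me2. No explanation was tested for these values, and each rests on 1 library.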
